A study of Homo sapiens with 12 samples.

Results

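The baseline transcriptional difference between a pair of triple negative breast cancer lines with an intact aryl hydrocarbon receptor (AHR) was read from 6 of the 12 arrays of the series, chosen by their labels as the Cas9 controls. Of these, 3 arrays held RNA from SUM149 cells, derived from an inflammatory breast cancer, and 3 held RNA from MDA-MB-231 cells, a line with mesenchymal features. The remaining 6 arrays held AHR knockout cells of the same lines. The control cells of both lines carried Cas9 without a guide RNA, and the knockout cells carried Cas9 with guides to AHR. SUM149 cells were grown in a medium with hydrocortisone and insulin, which the medium listed for MDA-MB-231 lacked, and with a lower share of serum. Line and medium therefore cannot be told apart in any difference given here. The 3 arrays of a group are described as biological replicates, but not whether they came from separate cultures or whether control cells were a clone or a pool, so the p-values measure the spread between these arrays.

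Each array gave a log2 expression value for 31720 Ensembl gene IDs. The values were summarised with RMA, which corrects background, gives all arrays near-equal distributions and combines the probes of a gene. Only 8 rows could be named, through symbol and ID pairs supplied with the description of this comparison. They were CDH1, EPCAM, KRT5 and GRHL2 as epithelial markers, VIM, ZEB1 and AXL as mesenchymal markers, and AHR itself.

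In epithelial-to-mesenchymal transition, epithelial cells give up the junctions that bind them to their neighbours and gain motility. E-cadherin, the product of CDH1, holds adherens junctions together, and its gene is repressed by ZEB1 and the Snail family, which bind E-box words such as CACCTG in DNA. GRHL2 acts on the other side, keeping epithelial genes active and restraining ZEB1. AHR is a ligand-activated transcription factor that pairs with ARNT and binds DNA at sites with the core GCGTG.

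The AHR guides used for the knockout arrays are printed because AHR level and the knockout arrays are read out below. AHR lies on chromosome 7 in the RefSeq reference. Both guides target its first exon, per the labels, and are given from 5′ to 3′.
AHR guide 1: cctacgccagtcgcaagcgg
AHR guide 2: ccgagcgcgtcctcatcgcg

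Promoter sequence was available in the RefSeq table (build GRCh38.p14) for 5 of the 8 genes, KRT5, VIM, ZEB1, AXL and AHR. The 250 bases before a start site were searched on both strands for the E-box word CAGGTG, which reads CACCTG on the other strand, and for the AHR core GCGTG, which reads CACGC. Shown are 1 gene that was higher in SUM149 and 2 that were higher in MDA-MB-231, with E-box words in capitals. KRT5 lies at chr12:52520395-52520644 on the minus strand, VIM at chr10:17227991-17228240 on the plus strand and the upstream of 2 AXL start sites at chr19:41218973-41219222 on the plus strand.
KRT5: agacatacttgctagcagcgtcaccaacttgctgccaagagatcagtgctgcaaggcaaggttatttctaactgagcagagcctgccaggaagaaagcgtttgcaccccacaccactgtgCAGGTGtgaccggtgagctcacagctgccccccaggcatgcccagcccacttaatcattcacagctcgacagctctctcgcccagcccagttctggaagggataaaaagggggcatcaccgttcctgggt
VIM: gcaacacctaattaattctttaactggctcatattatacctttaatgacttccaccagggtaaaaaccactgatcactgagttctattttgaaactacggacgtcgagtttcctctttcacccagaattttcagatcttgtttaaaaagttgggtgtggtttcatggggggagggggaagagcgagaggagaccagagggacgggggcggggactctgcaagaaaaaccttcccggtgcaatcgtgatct
AXL: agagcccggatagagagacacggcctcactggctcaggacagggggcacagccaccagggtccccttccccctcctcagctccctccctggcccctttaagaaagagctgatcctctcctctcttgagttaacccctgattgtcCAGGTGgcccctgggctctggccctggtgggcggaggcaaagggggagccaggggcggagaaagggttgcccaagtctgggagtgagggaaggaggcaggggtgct

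The E-box word occurred once in the KRT5 window, with its first base 130 bases before the start, and once in the AXL window shown, 106 bases before the start. The VIM and AHR windows held neither word. The second AXL start site had 2 AHR cores and no E-box. ZEB1 has 7 start sites in the table, of which 2 had at least 1 E-box and 2 others at least 1 AHR core. Over all 35116 windows of the table, 17.5% held the E-box word and 32.2% the AHR core. These matches describe the letters of the windows. No binding was measured.

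SUM149 and MDA-MB-231 Cas9 controls differed over a large part of the transcriptome. By limma on the 4 groups of arrays, with 1 estimate of spread for each gene and adjustment over all 31720 genes, 11235 genes (35.4%) passed an adjusted p of 0.05. Of these, 5500 (17.3%) were higher in SUM149 and 5735 (18.1%) were higher in MDA-MB-231. With each array centred on its median, these numbers were 6150 and 5011, so the larger side was not settled. The median difference over all genes was -0.03 on the log2 scale, written throughout as SUM149 minus MDA-MB-231. The called genes differed by a median of 0.63 where SUM149 was higher and of -0.57 where MDA-MB-231 was higher. The 3 arrays of a line did not overlap those of the other in 6774 genes (21.4%) higher in SUM149 and 7599 (24.0%) higher in MDA-MB-231.

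At least 2-fold differences, the second call rule, were found in 1422 genes (4.48%) higher in SUM149 and 1311 (4.13%) higher in MDA-MB-231. At 4-fold or more these were 432 and 366 genes, at 16-fold or more 87 and 54, and at 64-fold or more 19 and 7. Single arrays gave the same picture of scale. Any SUM149 control array differed from any MDA-MB-231 control array by at least 2-fold in 2883 to 3037 genes, against 78 to 103 between SUM149 control arrays and 119 to 141 between MDA-MB-231 control arrays. Across genes, arrays of a line correlated at 0.994 to 0.995 and arrays of different lines at 0.949 to 0.951. The median replicate SD of a gene was 0.108 in SUM149 and 0.114 in MDA-MB-231 controls. With the genes split into 3 equal parts by mean signal, 69.2% were called in the brightest part, 29.2% in the middle part and 7.87% in the dimmest.

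**Figure D1:**
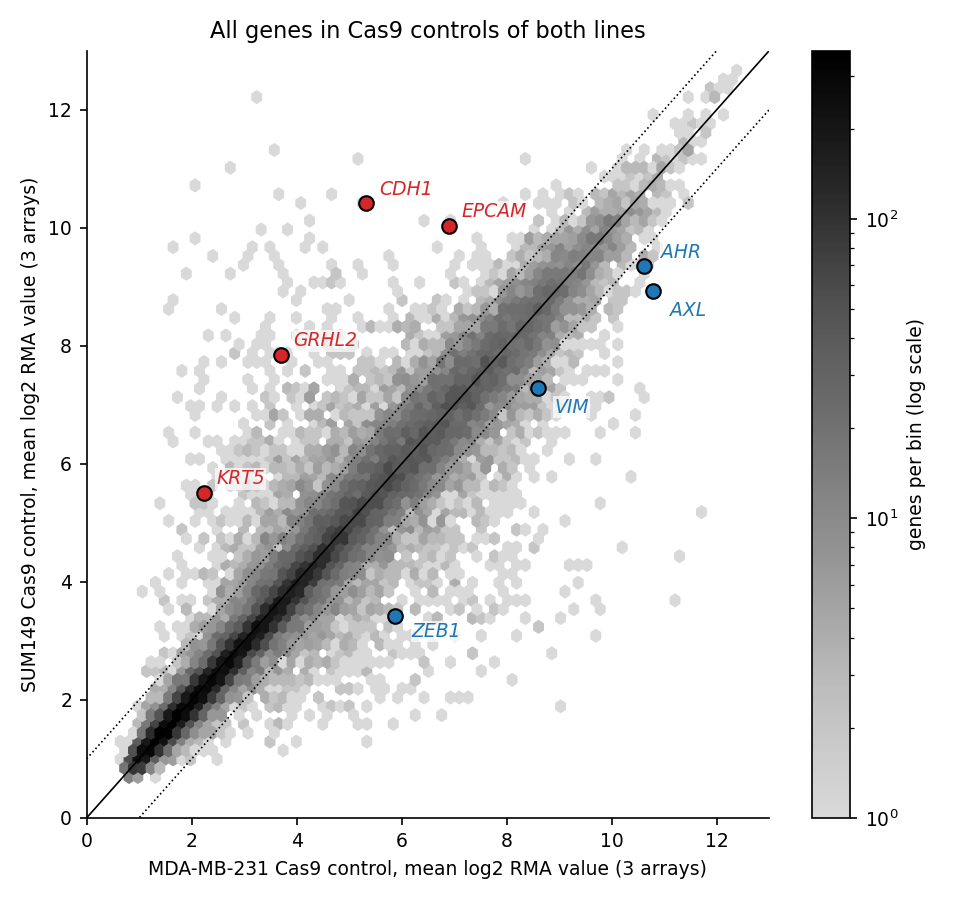
Mean log2 RMA value of 31720 genes in SUM149 Cas9 controls (vertical) against MDA-MB-231 Cas9 controls (horizontal), 3 arrays each, with grey for the number of genes in a bin. The solid line marks equal values, the dotted lines a 2-fold difference, red the epithelial markers and blue the mesenchymal markers and AHR. CDH1, EPCAM, GRHL2 and KRT5 lie above the upper dotted line and VIM, ZEB1, AXL and AHR below the lower one.

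All 8 named genes passed the 2-fold rule, which 2733 of all genes (8.62%) passed in either direction. They had been picked as line markers, so their number carries no weight of its own. The 4 epithelial genes were higher in SUM149 and the 3 mesenchymal genes and AHR higher in MDA-MB-231, and in each of the 8 the arrays of the lines did not overlap. No single gene can reach a p under 0.1 by exact permutation of 3 arrays against 3, so each p-value below rests on limma's model.

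CDH1 had the largest difference of the 8. Its log2 level was 5.32, 5.31 and 5.35 in MDA-MB-231 control replicates 1, 2 and 3, and 10.44, 10.38 and 10.41 in those of SUM149. The arrays of each line were nearly equal, and the lower ones, of MDA-MB-231, still lay between the median and the 75th percentile of their array. The log2 difference was 5.08 (95% interval 4.94 to 5.23, adjusted p = 1.14e-12 from limma), or 33.9-fold, which ranked 43 of 31720 genes counted from the highest in SUM149.

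EPCAM encodes an epithelial cell surface adhesion molecule. It read 7.07, 6.81 and 6.86 in MDA-MB-231 controls and 10.05, 10.05 and 10.01 in SUM149 controls. SUM149 was higher by 3.13 (95% interval 2.97 to 3.29, adjusted p = 4.76e-11 from limma), or 8.73-fold, at rank 173. The MDA-MB-231 arrays were the lower group here, but all 3 lay above the 75th percentile of their own array.

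GRHL2, the epithelial transcription factor named above, read 3.16, 4.10 and 3.82 in MDA-MB-231 controls and 7.87, 7.84 and 7.83 in SUM149 controls. The MDA-MB-231 arrays spread widely, with an SD of 0.479 (n = 3) against 0.0225 in SUM149, and replicate 1 lay below the median of its array. SUM149 was higher by 4.15 (95% interval 3.68 to 4.62, adjusted p = 2.57e-08 from limma), or 17.8-fold, at rank 78.

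KRT5 encodes keratin 5, an intermediate filament protein of basal epithelial cells. It read 2.24, 2.30 and 2.14 in MDA-MB-231 controls, below the median of each array, and 5.58, 5.54 and 5.40 in SUM149 controls, above the median but under the 75th percentile. SUM149 was higher by 3.28 (95% interval 2.88 to 3.68, adjusted p = 4.91e-08 from limma), or 9.72-fold, at rank 148. No measure of background came with the values, so a fold against a signal near or below the array median is less certain than those of EPCAM or VIM. This holds for KRT5 and GRHL2, for ZEB1, and for the unnamed rows with the largest differences.

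ZEB1, the repressor of CDH1, was higher in MDA-MB-231. It read 6.11, 5.95 and 5.56 in MDA-MB-231 controls and 3.36, 3.37 and 3.52 in SUM149 controls, with all 3 SUM149 arrays below their array's median. The difference was -2.46 (95% interval -2.83 to -2.09, adjusted p = 2.83e-07 from limma), or 5.50-fold. It ranked 226 of 31720 counted from the highest in MDA-MB-231.

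VIM encodes vimentin, the intermediate filament protein of mesenchymal cells. It read 8.60, 8.57 and 8.61 in MDA-MB-231 controls and 7.27, 7.32 and 7.29 in SUM149 controls. The groups lay far apart relative to their spread, yet all 6 arrays were above their own 75th percentile. The difference was -1.30 (95% interval -1.43 to -1.18, adjusted p = 6.44e-09 from limma), or 2.46-fold, at rank 860.

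AXL, a receptor tyrosine kinase of mesenchymal and invasive cells, read 10.79, 10.82 and 10.76 in MDA-MB-231 controls and 8.93, 8.88 and 8.97 in SUM149 controls. Both lines again gave signals above the 75th percentile of every array. The difference was -1.86 (95% interval -1.98 to -1.75, adjusted p = 2.19e-10 from limma), or 3.64-fold, at rank 431.

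AHR was higher in MDA-MB-231 as well. Its log2 level was 10.65, 10.57 and 10.64 in MDA-MB-231 controls and 9.31, 9.48 and 9.26 in SUM149 controls. The difference was -1.27 (95% interval -1.42 to -1.12, adjusted p = 3.88e-08 from limma), or 2.41-fold, at rank 897. AHR was bright in all 6 arrays. The receptor's activity was not measured, and the level of its transcript need not match it.

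**Figure D2:**
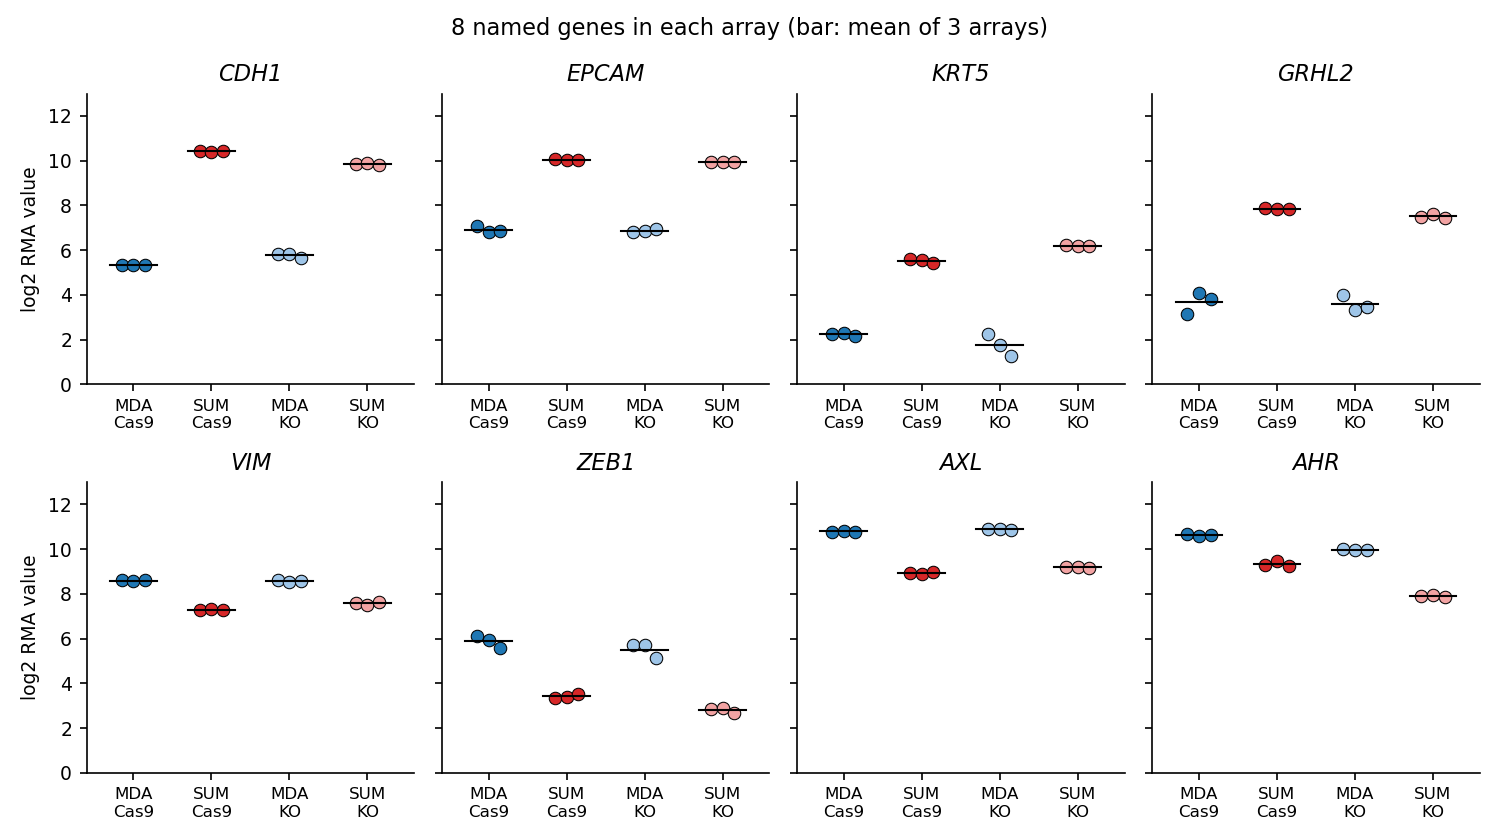
Log2 RMA value (vertical) of the 8 named genes in each of the 12 arrays, grouped as MDA-MB-231 (MDA) and SUM149 (SUM) with Cas9 control (Cas9) or AHR knockout (KO), 3 arrays a group, with a bar at the mean. In the Cas9 controls CDH1, EPCAM, KRT5 and GRHL2 are higher in every SUM149 array and VIM, ZEB1, AXL and AHR in every MDA-MB-231 array.

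Epithelial and mesenchymal markers thus separated the lines in opposite directions, though not every marker of the other class was dim. In SUM149 the signals of VIM and AXL were lower than in MDA-MB-231 but not low on the array, whereas that of ZEB1 was. In MDA-MB-231 the signal of EPCAM was lower than in SUM149 but not low on the array, whereas that of KRT5 was. In the same line CDH1 lay above the median of all 3 arrays, and GRHL2 in 2 of 3. These are places within an array, and no gene is ranked against another by them. In bulk RNA, fewer cells that express a gene and less RNA per cell cannot be told apart.

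The largest differences lay in rows with no name here, of which 4 were chosen after their values were seen. ENSG00000275379_at read 12.23, 12.20 and 12.18 in SUM149 controls and 3.37, 3.69 and 2.72 in MDA-MB-231 controls, a difference of 8.94 (standard error 0.19, adjusted p = 2.30e-11 from limma). ENSG00000276966_at followed at 8.65 (standard error 0.15, adjusted p = 7.73e-12). In the other direction ENSG00000100234_at read 11.24, 11.20 and 11.14 in MDA-MB-231 controls and 3.92, 3.26 and 3.79 in SUM149 controls, a difference of -7.54 (standard error 0.13, adjusted p = 7.92e-12). ENSG00000102271_at followed at -7.01 (standard error 0.10, adjusted p = 1.75e-12). All 4 rows were far above the 75th percentile in every control array of their high line.

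Of all 31720 rows, 94 with SUM149 as the high line and 47 with MDA-MB-231 were picked by a rule on array position. They lay above the 75th percentile in all 3 control arrays of the high line and below the median in all 3 of the other. ENSG00000100234_at is not among them, since only replicate 2 of its SUM149 controls lay below the array median. Their median size of difference was 4.02 and 4.03 on the log2 scale. In the AHR knockout arrays, which were not used to pick them, 56 of the 94 (59.6%) and 36 of the 47 (76.6%) met the same rule. How many of all rows met it in the knockout arrays was not counted, so these shares have no background to be read against. Rows picked at a cut-off can miss it on a repeat, so these shares are not compared.

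The same line difference was measured a second time in the knockout arrays, which share no array with the controls but do share the cell lines. Both sets of calls also rest on the same estimate of spread for each gene, taken over all 12 arrays. The calls are therefore not independent of each other. Of the 1422 genes at least 2-fold higher in SUM149 controls, 1336 (94.0%) were also called higher in SUM149 among knockout arrays and 10 were called lower. Of the 1311 at least 2-fold higher in MDA-MB-231 controls, 1244 (94.9%) were called in the same direction and 13 in the opposite one. For comparison, 18.2% of all genes were called higher in SUM149 and 19.0% higher in MDA-MB-231 in the knockout arrays. Over all 31720 genes the line differences in control and knockout arrays correlated at 0.863, as a description across genes, which are not replicates.

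**Figure D3:**
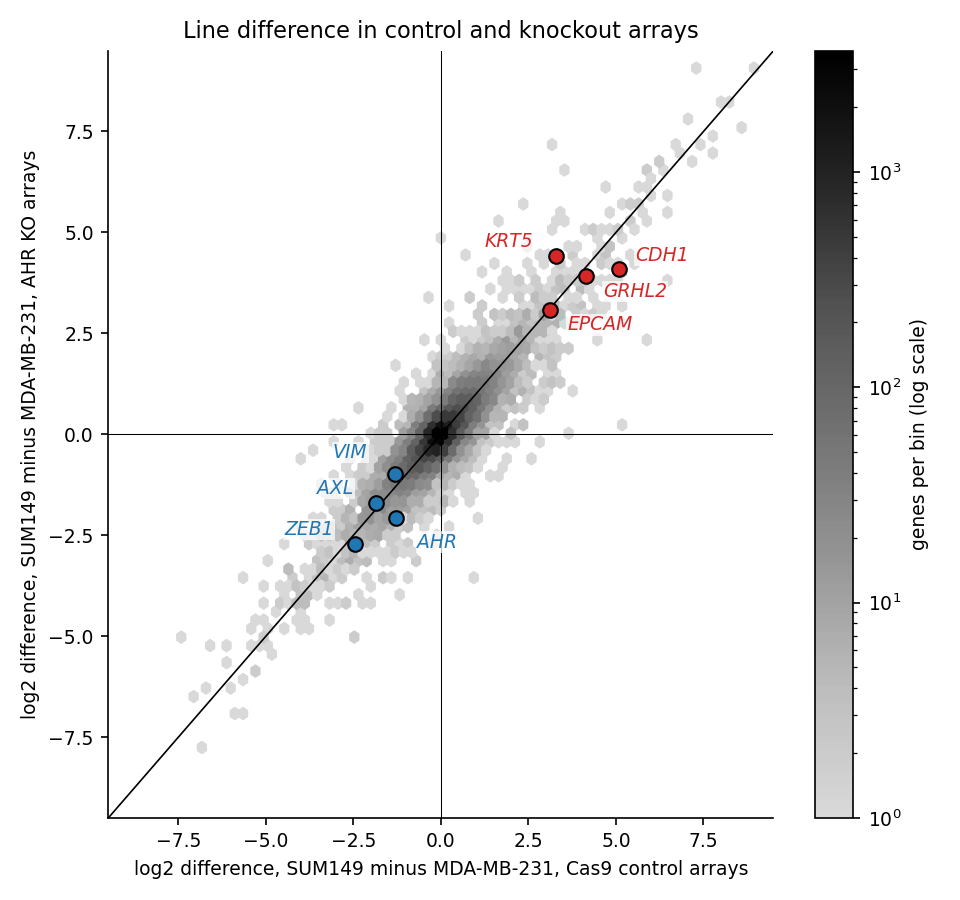
Log2 difference between the lines (SUM149 minus MDA-MB-231) in AHR knockout arrays (vertical) against Cas9 control arrays (horizontal) for 31720 genes, with grey for the number of genes in a bin and a line at equal differences, red the epithelial markers and blue the mesenchymal markers and AHR. KRT5 lies above the line of equality and CDH1 below it on the SUM149 side, and AHR lies below it and VIM above it on the MDA-MB-231 side.

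The size of the line difference changed with AHR knockout in 4173 of all genes (13.2%) by limma's interaction contrast. Among the genes at least 2-fold apart in controls, 576 of 1422 and 505 of 1311 passed that test, and the difference was smaller in knockout arrays in 406 and 365 of them. Those genes had been picked on the control arrays. Picked on the knockout arrays instead, 617 of 1463 and 506 of 1277 passed, and the difference was then smaller in the controls in 466 and 355. A general narrowing of the lines with knockout cannot be read from these counts. Knockout and control cells of a line were transduced with different vectors and selected apart, so any drift between them and the absence of AHR cannot be told apart.

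Of the 8 named genes, 4 passed the interaction test. The line difference of CDH1 was 5.08 in control and 4.09 in knockout arrays, a change of 1.00 (95% interval 0.80 to 1.19, adjusted p = 3.66e-05 from limma). CDH1 read 5.83, 5.83 and 5.64 in MDA-MB-231 knockout arrays, each above the controls of that line, and 9.87, 9.88 and 9.82 in SUM149 knockout arrays, each below the controls. It rose by 0.44 in MDA-MB-231 (adjusted p = 0.00279) and fell by 0.55 in SUM149 (adjusted p = 0.000111). Of all genes, 1.73% rose and 2.19% fell with knockout in MDA-MB-231, and 8.59% rose and 8.23% fell in SUM149.

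The line difference of AHR widened, from -1.27 to -2.08 (adjusted p = 0.000264 from the interaction contrast). AHR read 10.02, 9.94 and 9.98 in MDA-MB-231 knockout arrays and 7.91, 7.93 and 7.84 in SUM149 knockout arrays. In both lines the knockout arrays were all lower than the controls. The transcript fell by 0.64 in MDA-MB-231 (adjusted p = 0.000345) and fell by 1.45 in SUM149 (adjusted p = 1.45e-07). Its signal stayed above the 75th percentile of every knockout array, and guides that cut an exon need not remove the transcript. The paper states that the knockout was checked by DNA sequencing and immunoblot, and it shows blots of AHR protein for both lines. The arrays measure RNA only.

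The line difference of KRT5 widened from 3.28 to 4.42 (adjusted p = 0.0129 from the interaction contrast). KRT5 rose in SUM149 by 0.67 (adjusted p = 0.0244), reading 6.22, 6.17 and 6.16 in the knockout arrays. In MDA-MB-231 it read 2.24, 1.76 and 1.28, a change of -0.47 at low signal that did not pass (adjusted p = 0.223). The line difference of VIM shrank from -1.30 to -0.99 (adjusted p = 0.0254 from the interaction contrast). VIM rose by 0.28 in SUM149 (adjusted p = 0.00488), while its change in MDA-MB-231 was -0.03 (adjusted p = 0.864).

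For the other 4 named genes the change of the line difference did not pass. It was 0.04 for EPCAM (95% interval -0.19 to 0.27), 0.24 for GRHL2 (-0.43 to 0.90), 0.25 for ZEB1 (-0.27 to 0.77) and -0.17 for AXL (-0.34 to -0.01, adjusted p = 0.183 over all genes). These intervals are wide for GRHL2 and ZEB1, whose arrays spread more. In SUM149 knockout cells ZEB1 fell by 0.62 (adjusted p = 0.0257 from limma), at signals below the array median, and AXL rose by 0.26 (adjusted p = 0.0051). Of all genes, 8.23% fell and 8.59% rose with knockout in SUM149. In MDA-MB-231 the changes had the same directions but did not pass. They were -0.37 for ZEB1 (adjusted p = 0.311 from limma) and 0.09 for AXL (adjusted p = 0.463). The control and knockout comparisons within a line share the control arrays with the line difference.

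**Figure D4:**
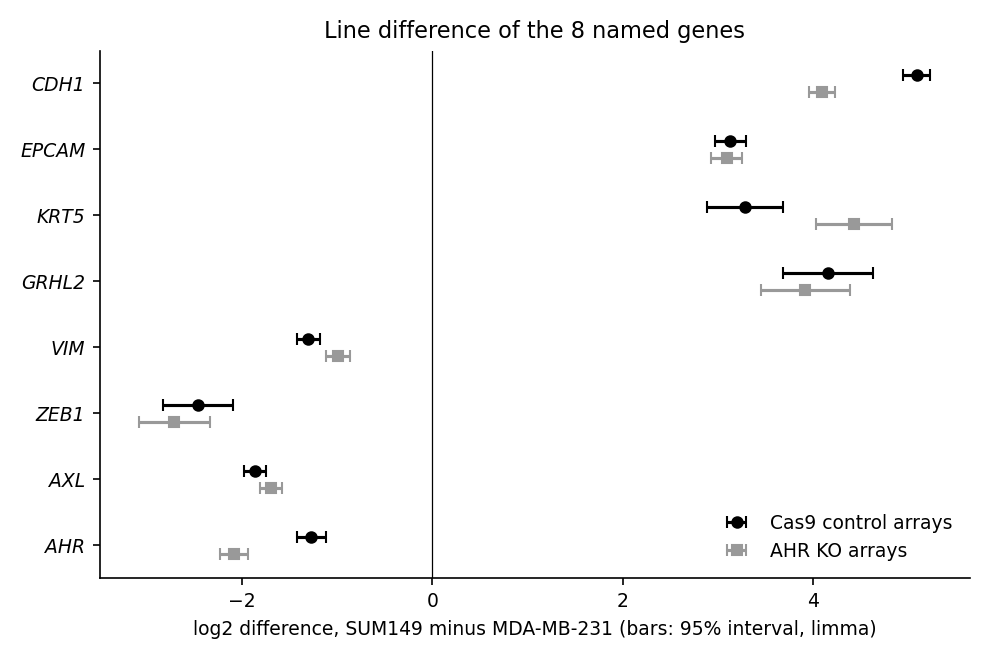
Log2 difference between the lines (SUM149 minus MDA-MB-231, horizontal) of the 8 named genes in Cas9 control arrays (black circles) and AHR knockout arrays (grey squares), with 95% intervals from limma, 3 arrays a group. All 16 intervals keep their gene on the same side of 0, and those of CDH1, KRT5, VIM and AHR do not overlap between control and knockout arrays.

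Side by side, the line difference was the larger contrast of the series. At least 2-fold differences were called in 2733 genes (8.62%) between the control lines, in 470 (1.48%) between knockout and control SUM149 cells and in 106 (0.334%) between knockout and control MDA-MB-231 cells. These comparisons share control arrays and were not tested against each other.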

How the data were processed

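RNA of 12 samples was hybridised to Affymetrix whole human genome arrays, and the 6 Cas9 control arrays are described here. The authors deposited log2 values, made per the labels with RMA (affy 1.48.0 in R 3.2.3), with an Ensembl gene ID naming each of the 31720 rows. Genome build and probe set definition are not given in the sources used here. RMA makes the arrays' distributions near-equal, so a shift of most transcripts would not be seen.

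The values were used as deposited, with no filter on dim genes. A linear model with 4 group means was fitted to all 12 arrays (8 residual degrees of freedom) with limma 3.58.1 in R 4.3.3, and variances were moderated with eBayes. Contrasts gave the line difference in control arrays, in knockout arrays, and the change between them (interaction). Benjamini-Hochberg adjustment ran over all rows, with a threshold of 0.05 and a second rule adding a difference of at least 2-fold. Tables were made with Python 3.11.15 and pandas 2.3.3, plots with matplotlib 3.10.9. Before use, the fit was tested on simulated data with known differences. Precision is limited by how many arrays there are.

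The reference table named 0 of the 31720 IDs. The 8 named genes come from pairs given for this comparison, and promoters from RefSeq. The rule for named genes was these 8, then the 10 largest called differences in each direction among rows with a symbol and the leading members of gene lists, which could not be applied without symbols. The 4 unnamed IDs, 2 in each direction, fall outside it and were chosen after their values were seen. Planned descriptions of 24 gene lists were not run, since 8 of their 489 genes had a named row. The members, named genes and lists were chosen with earlier results of these data known. Alternatives were 21 settings, 12 of which leave out 1 array.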

Additional observations from a re-analysis of the deposited data

Results flagged for a closer look

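For 7 of the 12 genes followed one by one, the 8 named genes and the 4 unnamed rows with the largest differences, the line difference in Cas9 control arrays differed from that in AHR knockout arrays by limma's interaction contrast. This is 4 of the 8 named genes. Among all genes at least 2-fold apart in control arrays, as the 8 are, the share was 40.5% of those higher in SUM149 and 38.5% of those higher in MDA-MB-231, and over all genes it was 13.2%. The change, written as the difference in control minus that in knockout arrays, was 1.00 for CDH1, -1.14 for KRT5, -0.31 for VIM and 0.81 for AHR. The line difference was smaller in knockout arrays for CDH1 and VIM and larger for KRT5 and AHR. These interaction calls come from the main fit and were not followed gene by gene through the other settings. At an adjusted p of at most 0.01 in that fit, CDH1 and AHR passed and KRT5 and VIM did not.

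Among the unnamed rows the change was 0.99 for ENSG00000276966_at (adjusted p = 0.0115), -2.53 for ENSG00000100234_at (adjusted p = 9.84e-06) and -0.49 for ENSG00000102271_at (adjusted p = 0.0377). All 3 differed less between the lines in knockout arrays, and each had been picked on its difference in control arrays. ENSG00000100234_at rose in SUM149 from a control mean of 3.66 to 5.95, 6.05 and 6.09 in the 3 knockout arrays (log2 difference 2.37, adjusted p = 6.09e-07 from limma), while in MDA-MB-231 the change was -0.16 (adjusted p = 0.652).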

How the results depend on the processing

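The line difference in control arrays of each of the 12 genes followed one by one kept its direction and its call in all 21 settings. Many settings keep the 6 control arrays and their values, such as those without a knockout array. These cannot move the difference itself, only its p-value. It could move only where values were normalized again or a control array was left out. There the difference of CDH1 ran from 5.07 to 5.13 and that of AHR from -1.34 to -1.22. The unnamed rows had been picked for size in these arrays. The counts of genes higher in SUM149 ran from 4466 to 6150, those higher in MDA-MB-231 from 4385 to 5770, and at 2-fold from 1385 to 1537 and from 1214 to 1349, all within 1.5 times of the values reported. Which line held more called genes turned with median-centred arrays, to 6150 higher in SUM149 and 5011 in MDA-MB-231. It also turned at an adjusted p of at most 0.01, to 4466 and 4385. Genes whose line difference changed with knockout numbered 2172 at an adjusted p of at most 0.01, a stricter threshold that can only lower the 4173, and 5235 with variance trend and robust moderation, the highest of the settings. Without any 1 array they numbered 3372 to 3664, and the genes higher in SUM149 and in MDA-MB-231 5041 to 5471 and 5176 to 5722. Dim signals limit what can be called, and no detection call came with the values.

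With the replicate number as a replicate block, 5436 genes were higher in SUM149, 5657 higher in MDA-MB-231, 1422 and 1311 at 2-fold, and 3717 changed with knockout. With the block and only the 6 control arrays, 4823 and 4886 were called. Whether the numbers pair the arrays is not known. Deviations of same-numbered control arrays correlated at -0.01 to 0.01 over 3 pairs. That shows no large deviation shared across genes, but cannot show that the arrays were handled apart. The setting restricted to rows with a gene symbol was not run, as only 8 rows have one.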
